A study of Mus musculus with 2 samples.

Results

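The genes described here encode replacement histone variants, the histones that cells can place into chromatin outside DNA replication, together with Slbp, which encodes the stem-loop binding protein of replication histone mRNA. The 10 genes were chosen by name, not by any measured value, from the 42462 genes whose identifiers matched an annotation. They are H2afz and H2afv (both H2A.Z), H2afx (H2A.X), H2afy and H2afy2 (the macroH2A genes), H2afj (H2A.J), H3f3a and H3f3b (both H3.3), Cenpa (CENP-A) and Slbp. Total RNA was sequenced from MEL, an immortalized mouse erythroleukemia line, after 5 days in 2% dimethyl sulfoxide (DMSO), an agent that sends these cells toward hemoglobin production. There were 2 libraries of this 1 condition, replicates 1 and 2. The labels call them biological replicates but trace both to the same biosample record, and part of their spread may therefore be technical. Untreated cells were not analysed here, so nothing below measures an effect of DMSO.

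Most histone mRNA comes from the replication-dependent genes, which sit in clusters, have no introns, are transcribed in S phase and end in a stem-loop bound by SLBP instead of a poly(A) tail. Replacement variants are not tied to DNA replication in the same way, come mostly from genes with introns and polyadenylated mRNA, and in several cases (H3.3, H2A.Z, CENP-A) are placed by chaperones or exchange complexes of their own. H3.3 marks active genes and silent repeats, H2A.Z sits beside transcription start sites, H2A.X is phosphorylated at DNA breaks, macroH2A carries a large globular domain and is tied to silent chromatin, and CENP-A marks centromeres. In red cell precursors chromatin condenses before the nucleus is lost.

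The library of replicate 1 held 65109488 estimated counts and that of replicate 2 held 90856320. All 9 erythroid markers examined reached 1 TPM, a length-normalised transcript level, in each library. Markers of other cell types summed to 35.9 TPM in the first library and 25.8 TPM in the other. Of those, 1 of 10 reached 1 TPM in both, the platelet factor gene Pf4, at 34.1 TPM in replicate 1 and 24.7 TPM in replicate 2. Ptprc was at 1.49 and 0.92 TPM, Csf1r had 189 and 227 counts, and Col1a1 had 102 in each library. The T cell gene Cd3e and the epithelial gene Epcam had at most 1 count in either library. The libraries themselves stood apart in erythroid mRNA, with summed marker levels of 6546 TPM (replicate 1) and 13672 TPM (replicate 2), and 6 of the 9 markers were 2-fold or more higher in replicate 2, against 1.39% of all genes. In bulk RNA, more cells making globin and more globin mRNA per cell cannot be told apart. The part of this difference in the values below was not tested.

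Of the 10 genes, 9 reached 1 TPM in both libraries, and they spanned the range from H2afz at 199 ± 0.721 TPM (SD, n = 2) down to H2afj at 7.63 ± 1.82 TPM. TPM is shared with abundant short RNA here, and rescaled to nuclear protein-coding genes alone the mean levels were 1535 for H2afz and 58.7 for H2afj. H2afy2 was nearly silent. TPM is a level per transcript length, so it allows genes to be ranked. In falling order of mean TPM they were H2afz, H2afx, H3f3a, H3f3b, Slbp, Cenpa, H2afv, H2afy, H2afj and H2afy2. Between neighbours in this order the library values overlapped for Cenpa with H2afv and for H2afy with H2afj, and every other neighbouring pair was separated in both libraries. The order of H2afz and H2afx rests on division by length. The ratio of H2afz to H2afx was 1.15 and 1.03 by TPM but 0.731 and 0.674 by estimated counts. For comparison, 8003 protein-coding genes reached 1 TPM in both libraries, and their median was 4.84 TPM in the first and 3.99 TPM in the other. H2afz lay above 98.6% of them and H2afj above 70.9%.

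**Figure D1:**
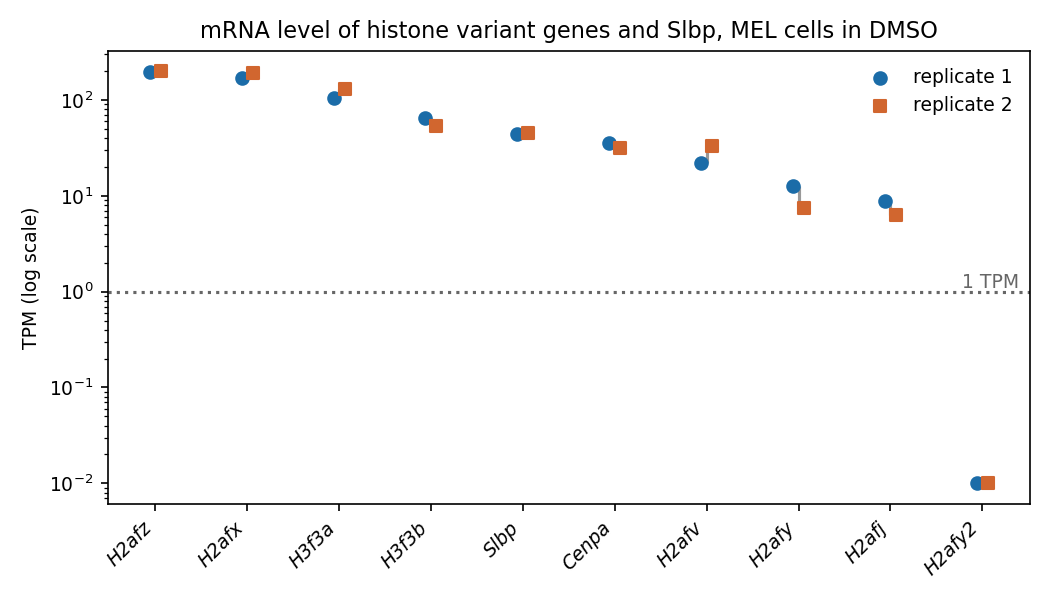
Level of each gene in TPM (log axis) in replicate 1 (circles) and replicate 2 (squares), with a grey line joining the 2 libraries and a dotted line at 1 TPM. Symbols of H2afz lie on each other at 198 and 199 TPM, those of Cenpa and H2afv cross, and H2afy2 lies far below the rest at 0.01 TPM.

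The H2A.Z genes are H2afz on chr3:137864487-137866922 (plus strand) and H2afv on chr11:6427229-6444443 (minus strand). Coordinates here and below are mm10. H2afz stood at 198 TPM in replicate 1 and 199 TPM in replicate 2, from 37253 and 63673 counts. H2afv stood at 21.9 TPM and 32.8 TPM, from 4502 and 10710 counts. Both libraries thus held H2A.Z mRNA mostly from H2afz, with a ratio of H2afz to H2afv of 9.05 in replicate 1 and 6.07 in replicate 2 (7.56 ± 2.11, SD, n = 2). Summed, the H2A.Z genes reached 220 and 232 TPM. Their full-length products both have 128 residues, of which 3 differ, while 81 bases of the coding sequence differ. The first 60 coding bases are shown, because such base differences are what lets short reads be assigned to 1 gene or the other, with capitals marking the 13 positions that differ (GENCODE transcripts).
H2afz: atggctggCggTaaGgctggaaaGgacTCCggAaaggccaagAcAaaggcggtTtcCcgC
H2afv: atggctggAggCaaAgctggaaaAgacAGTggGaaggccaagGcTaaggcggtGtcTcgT

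The H3.3 genes are H3f3a on chr1:180800832-180813943 and H3f3b on chr11:116021912-116027962, both on the minus strand. H3f3a stood at 105 TPM in replicate 1 and 129 TPM in replicate 2. H3f3b stood at 64.8 TPM and 54.0 TPM. H3f3a was the higher gene in both libraries, by a ratio of 1.61 in replicate 1 and 2.40 in replicate 2 (2.01 ± 0.556, SD, n = 2). That order depends on length. By estimated counts, which are not divided by length, H3f3a had 18604 and 40206 and H3f3b 22465 and 33611, a mean ratio of 1.01, with H3f3b ahead in replicate 1 and H3f3a in replicate 2. The H3.3 sum was steadier than its parts, at 169 and 183 TPM. Their full-length products have the same 136 residues with 0 differences, although 95 of the coding bases and 83 of the codons differ. From the replication protein of Hist2h3c2 each differs at 4 residues. In the first 60 coding bases 13 positions differ and are in capitals.
H3f3a: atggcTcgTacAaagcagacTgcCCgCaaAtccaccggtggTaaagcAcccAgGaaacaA
H3f3b: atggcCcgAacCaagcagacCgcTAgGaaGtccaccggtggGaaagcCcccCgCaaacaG

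H2afx, an intronless gene on chr9:44334694-44336077 (plus strand), was the second highest, at 172 TPM in replicate 1 and 193 TPM in replicate 2, and had the most counts of the set, 50936 and 94503. Among the variant genes it is the exception in mRNA structure, being known to give both a short stem-loop message like that of replication histones and a longer polyadenylated one. Whole transcripts were searched, on the transcript strand, for a 6-base stem beginning with GG and a 4-base loop beginning with TT. A match was found in H2afx and in no coding transcript of the other 9 genes. The same search matched 208 of 58797 annotated coding transcripts (0.354%) and 40 of 59 annotated replication-dependent core histone genes (67.8%). Some annotated models of those genes are only as long as a coding sequence, so a stem-loop after the stop codon could not be found in them. In H2afx the stem-loop starts 46 bases after the stop codon and the 1384-base transcript goes on for 822 bases past it, ending with a poly(A) signal (AATAAA or ATTAAA) in its last 50 bases. A poly(A) signal in that window was found in 50.2% of annotated coding transcripts. The deposited tables list 1 H2afx transcript, of the long form's length, so the short message cannot be counted apart. The TPM of H2afx divides by the long length, and the share of short messages in it was not tested. The stem-loop of H2afx is set beside those of an H4, an H2A and an H3 replication gene, with the stem and loop in capitals.
H2afx: aaaGGCCCTTTTAAGGGCCaccac
Hist1h4d: aaaGGCCCTTTTCAGGGCCactac
Hist2h2aa1: aaaGGCTCTTTTCAGAGCCaccca
Hist2h3c2: aaaGGCTCTTTTCAGAGCCaccac

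H2afj, a variant known to build up in senescent cells, lies on chr6:136808244-136810074 (plus strand) and was at 8.91 TPM in replicate 1 and 6.34 TPM in replicate 2. It had no stem-loop match and did have a poly(A) signal. It was the lowest of the 9 expressed genes.

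MacroH2A1 is encoded by H2afy on chr13:56073619-56136361 (minus strand), which was at 12.8 TPM in replicate 1 and 7.44 TPM in replicate 2. MacroH2A2 is encoded by H2afy2 on chr10:61738665-61784147 (minus strand), which had 4 counts in replicate 1 and 7 in replicate 2, listed at 0.01 TPM in both. Those counts correspond to 0.0614 CPM (counts scaled to library size, 95% exact Poisson interval 0.0167 to 0.157) and 0.0770 CPM (0.0310 to 0.159), close to the 3 counts that a count of 0 would allow. Intervals here and below cover counting error only. The gene also overlaps Aifm2 on the opposite strand, which had 1441 and 2340 counts, and whether counting used strand is not given in the sources used here. MacroH2A mRNA was therefore almost wholly that of H2afy in both libraries.

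H2afy is spliced with either of 2 alternative exons. The 100-base exon gives the 372-residue macroH2A1.2 (transcript H2afy-201), and the 91-base exon gives the 369-residue macroH2A1.1 (H2afy-202), the form known to bind ADP-ribose. H2afy-201 was at 4.44 TPM in replicate 1 and 3.02 TPM in replicate 2. H2afy-202 was at 0.66 and 0.16 TPM, from 300 and 123 counts, and its deposited length of 2037 bases differs from the 1933 bases in M21. The macroH2A1.1 form made up 12.9% of the pair in replicate 1 and 5.03% in replicate 2 (8.99% on average), and by counts 12.9% (95% exact binomial interval 11.6% to 14.3%) and 5.13% (4.27% to 6.08%). The binomial intervals take estimated counts as separate reads, though the model splits reads that both transcripts can share. They may therefore be too narrow. The authors' TPM interval for H2afy-202 was 0.511 to 0.833 in replicate 1 and 0.109 to 0.235 in replicate 2. Both libraries held mostly macroH2A1.2, and the estimated minor share differed more than 2-fold between them. The exons are shown whole because all evidence on this splice choice rests on them, first that at chr13:56089758-56089857 and then that at chr13:56088252-56088342 (GRCm38, minus strand, all in lower case since no stretch is marked).
H2afy-201 exon: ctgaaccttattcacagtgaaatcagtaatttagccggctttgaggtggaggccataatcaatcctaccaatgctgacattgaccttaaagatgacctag
H2afy-202 exon: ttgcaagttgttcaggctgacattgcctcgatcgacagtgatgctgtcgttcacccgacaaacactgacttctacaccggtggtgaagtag

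Cenpa, on chr5:30666777-30674830 (plus strand), was at 35.6 TPM in replicate 1 and 31.6 TPM in replicate 2. Only part of that is annotated as coding, in classes taken from GENCODE M21. For its main coding and decay transcripts, the deposited lengths differ from those in M21 (Cenpa-205 1354 against 1466 bases, Cenpa-202 1151 against 1031), so these classes may not describe the models that were counted. Transcripts classed as protein-coding held 42.4% of its TPM in replicate 1 and 51.9% in replicate 2, nearly all in Cenpa-205, which encodes 134 residues. Transcripts marked for nonsense-mediated decay, the pathway that removes mRNA with an early stop codon, held 45.9% and 37.2%, and those with a retained intron held 11.7% and 10.9%. Cenpa-205 itself was at 14.9 TPM in replicate 1 and 16.3 TPM in replicate 2, so the coding transcript was the higher in replicate 2 although the gene as a whole was lower there by TPM.

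Slbp, on chr5:33634952-33652574 (minus strand), encodes the protein that binds the histone stem-loop, directs its processing and stays with the message for export and translation. It was at 44.5 TPM in replicate 1 and 44.9 TPM in replicate 2, so by TPM the libraries were nearly alike. Its coding transcripts held 90.1% and 91.6% of its TPM. The leading one by TPM changed between libraries. Slbp-202 (250 residues) held 40.2% in replicate 1 and 35.0% in replicate 2, and Slbp-203 (255 residues) held 39.4% and 44.4%. Of the 7 genes with several transcripts, Slbp was the exception, the other 6 having the same leading transcript in both libraries. The 56 replication-dependent core histone genes summed to 14046 TPM in replicate 1 and 16916 TPM in replicate 2, or 316 and 377 TPM per TPM of Slbp (346 ± 43.2, SD, n = 2).

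Transcript classes set the remaining genes apart. H3f3b had 64.7% of its TPM in protein-coding transcripts in replicate 1 and 75.7% in replicate 2, with the rest in non-coding processed transcripts, chiefly H3f3b-204 at 29.2% and 18.4%. H3f3a had 91.1% and 94.2% in protein-coding transcripts, led by H3f3a-207 at 54.6% and 55.1%. Its second transcript, H3f3a-201, whose reading frame has 135 residues, held 29.4% and 29.6%. In H2afz the full-length H2afz-201 held 60.3% and 66.5%, and H2afz-207, whose reading frame has 105 residues, held 29.5% and 25.6%. In H2afv the 519-base H2afv-201, with a 90-residue frame, held 56.3% and 59.0% of TPM. The 1633-base H2afv-202, with the full 128 residues, held the rest, which was 75.9% and 74.0% of the counts. H2afy had 40.0% and 42.8% in protein-coding transcripts. Shares of this kind are model estimates from reads that several transcripts can share.

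**Figure D2:**
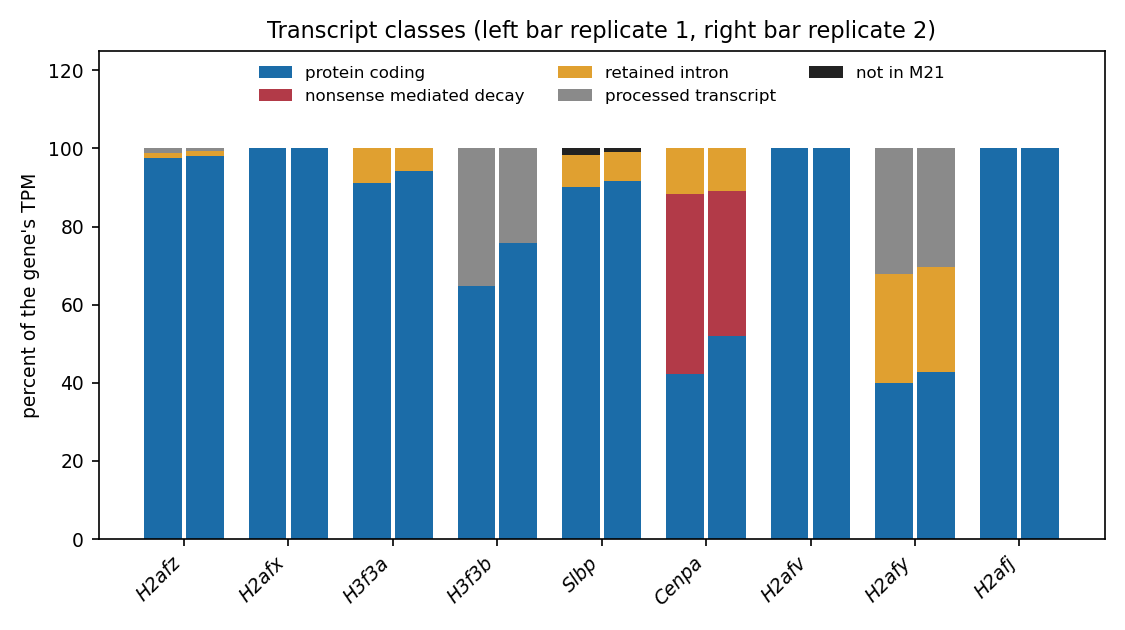
Percent of each gene's TPM in annotated transcript classes (stacked colours), left bar replicate 1 and right bar replicate 2, for the 9 expressed genes. H2afx, H2afv and H2afj are wholly protein-coding, while Cenpa and H2afy have less than 52% in coding transcripts in each library.

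Set within their families, replacement variants were the minor part of core histone mRNA. The shares use the TPM of whole genes, so transcripts not annotated as coding, as in Cenpa, H2afy and H3f3b, are included. Of all H3 TPM, H3.3 held 7.07% in replicate 1 and 7.06% in replicate 2 (7.07% ± 0.00459, SD, n = 2), and CENP-A held 1.49% and 1.22%. Of all H2A TPM, H2A.Z held 4.69% and 4.44% (4.57% ± 0.181), H2A.X 3.66% and 3.69%, macroH2A 0.272% and 0.142%, and H2A.J 0.190% and 0.121%. Together the variants held 8.60% ± 0.303 of H2A TPM and 8.42% ± 0.197 of H3 TPM. The shares of H3.3 and H2A.X hardly moved between libraries, while those of macroH2A, H2A.J, CENP-A and H2A.Z were lower in replicate 2. Replication genes have short annotated models, some as long as a coding sequence alone, such as Hist1h3h at 411 bases. The shares of estimated counts, which are not divided by length, are therefore larger, 14.2% for H3.3 and 20.9% for all H2A variants. How far incomplete models lower the TPM shares was not tested. The replication side of the families comprised 17 H2A genes at 4533 ± 364 TPM in sum, led by Hist2h2aa2, Hist2h2aa1 and Hist2h2ac, and 12 H3 genes at 2286 ± 136 TPM, led by Hist2h3b, Hist2h3c2 and Hist1h3h. In the same libraries the 14 H2B genes summed to 2611 ± 520 TPM, led by Hist1h2bg, Hist1h2bk and Hist1h2bb, and the 13 H4 genes to 6051 ± 1010 TPM, led by Hist1h4d, Hist1h4n and Hist1h4c. Germline variant genes were at 1 TPM in 0 of 7 cases, with 2 counts of Hist1h2aa in replicate 1 as the only reads.

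**Figure D3:**
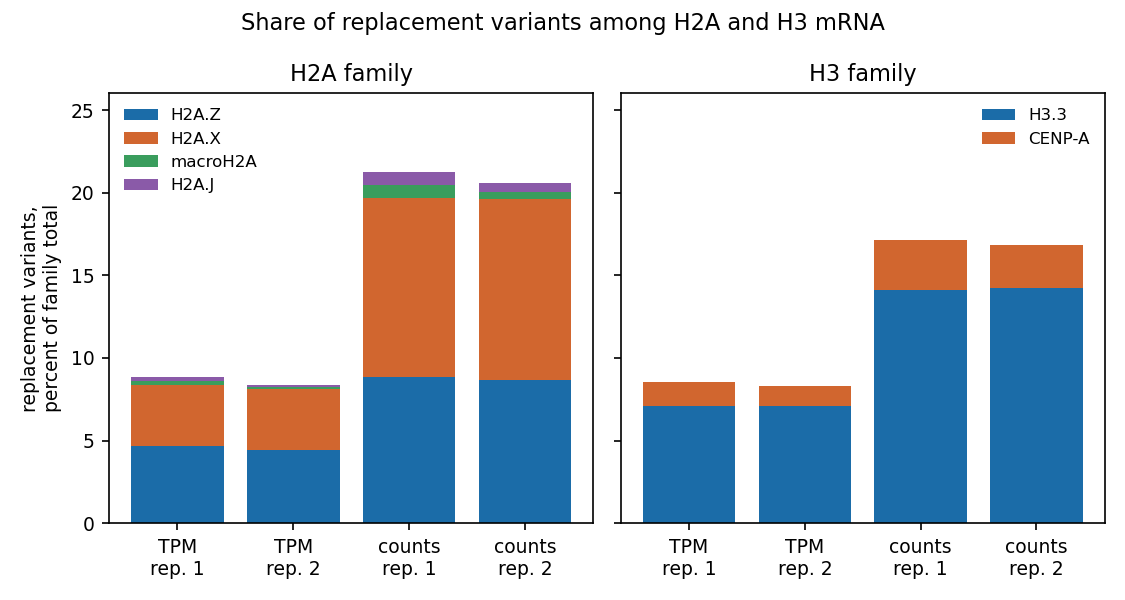
Replacement variants as a percent of the H2A family total (left) and the H3 family total (right), by TPM and by estimated counts in each replicate, with stacked colours for the variants. Bars of the same unit are alike in both libraries, at 8.28% to 8.82% by TPM and 16.8% to 21.2% by counts.

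The libraries were then compared gene by gene, as the log2 ratio of replicate 2 to replicate 1 on TMM-scaled counts (a scaling that assumes most genes alike), with 1 library on each side and so no test. Of the 9 genes with 100 or more counts, 0 differed 2-fold or more, against 3.33% of 11591 genes (1.39% higher in replicate 2 and 1.94% lower). At 1.5-fold, 2 were higher in replicate 2, H2afv and H3f3a, against 5.92% of all genes, and 0 were lower, against 7.71%. H2afv had a log2 ratio of 0.80 (95% exact interval 0.75 to 0.85), above that of 97.4% of genes. H3f3a had 0.66 (0.64 to 0.69), whereas H3f3b, with the same full-length protein, had 0.13 (0.11 to 0.16). Likewise H2afz, at 0.32 (0.31 to 0.34), lay well below H2afv. In each pair the intervals of the paralogs did not overlap, but they hold no spread between replicates.

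H2afx had a log2 ratio of 0.44 (0.43 to 0.46), Slbp 0.33 (0.29 to 0.36) and Cenpa 0.14 (0.11 to 0.18). The lower genes in replicate 2 were H2afj at -0.21 (-0.28 to -0.15) and H2afy at -0.46 (-0.52 to -0.39). For H2afy2 the interval ran from -1.62 to 2.58 and gives no direction. The median of the 9 was 0.32, and that of 55 replication core histone genes was 0.49, of which 1 was past 2-fold. That one was Hist2h3c1, named after its values were seen, which has near-identical copies and was given 0 counts in replicate 1 and 142 in replicate 2.

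Ratios of TPM ran lower throughout, since the median gene was at -0.28 by TPM and 0.02 by TMM. The direction of H3f3b and Cenpa changed with it, to -0.26 and -0.18 by TPM. Relative to the median gene, 7 of the 9 genes were above on both scales and 2, H2afy and H2afj, were below. H3f3b lay above by 0.12 (TMM) and 0.02 (TPM) and Cenpa by 0.13 and 0.11.

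**Figure D4:**
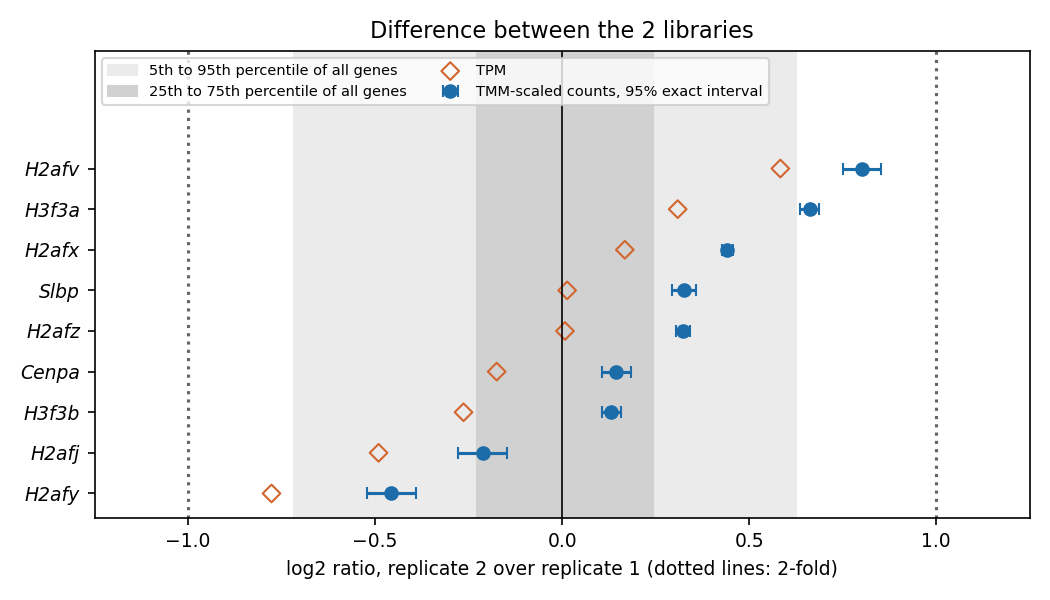
Log2 ratio of replicate 2 to replicate 1 for the 9 genes with 100 or more counts, as TMM-scaled counts with 95% exact intervals (filled) and as TPM (open diamonds), over the middle ranges of all 11591 genes by TMM (grey). All lie within the dotted 2-fold lines, and H2afv and H3f3a lie above the 95th percentile of TMM ratios.

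Near-identical copies bear on how far reads can be assigned. For each gene, the annotated transcript with the longest encoded protein was searched whole, with its untranslated parts. At 90% identity over 200 bases or more of it, H3f3a had 40 copies in the annotation, of which 39 are processed pseudogenes. Those with 100 or more counts were H3f3c, with 534 and 1303 counts, and H3f3a-ps2, with 140 and 369, and all copies in the tables together came to 3.79% and 4.22% of the counts of H3f3a. For H2afz the pseudogene Gm8203 is identical over 387 bases and had 615 and 1112 counts, so all H2afz copies came to 1.65% and 1.75% of its counts. H2afy3, a processed pseudogene 95.9% identical to H2afy2 over 1122 bases, had 132 and 83 counts, more than H2afy2 itself. H2afv, H2afy and Cenpa had 0 such copies. The transcripts of H2afx and H2afj met the same limit with 20 and 16 other genes, mostly replication H2A genes, of which 19 and 14 had 100 or more counts. H3f3a is also overlapped on the opposite strand by Gm17275, with 710 and 787 counts. The authors' posterior standard deviation was at most 0.154% of the count for every one of the 10 genes, which is the model's own error only.

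Promoters were read from RefSeq (GRCm38.p6), 250 bases before to 50 bases after the start, for the 9 genes with an entry. CCAAT, the box bound by the factor NF-Y and common in cell cycle and histone promoters, was searched on both strands, as CCAAT or ATTGG. It was present in 8 of 9 promoters, against 37.4% of 32851 promoters, and 2 or more copies were present in 6 of 9, against 11.7%. H3f3b and H2afv had 4 copies, and 4 or more were found in 1.06% of all promoters. H2afz, H2afj and Slbp had 3. Cenpa had 2, H3f3a and H2afy2 had 1 and H2afy had 0. The motif TATAAA, searched on the gene's strand only, was found in H3f3b alone, against 8.32% of all promoters. The H3.3 promoters are printed because genes with the same full-length protein have very different sequence around these starts. Both windows lie within the gene spans given above, so the RefSeq starts used differ from the outermost starts in GENCODE M21. That of H3f3a (chr1:180813556-180813855, minus strand) is 74.0% G and C and that of H3f3b (chr11:116024455-116024754, minus strand) 55.0%. Capitals mark CCAAT or ATTGG. A match is a description of the letters and not evidence of binding.
H3f3a: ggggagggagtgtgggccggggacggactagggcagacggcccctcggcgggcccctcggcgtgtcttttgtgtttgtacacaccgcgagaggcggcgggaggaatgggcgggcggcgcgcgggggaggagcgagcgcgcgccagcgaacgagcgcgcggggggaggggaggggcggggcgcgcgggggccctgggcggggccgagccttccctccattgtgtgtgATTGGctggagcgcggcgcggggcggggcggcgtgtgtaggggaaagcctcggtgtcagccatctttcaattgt
H3f3b: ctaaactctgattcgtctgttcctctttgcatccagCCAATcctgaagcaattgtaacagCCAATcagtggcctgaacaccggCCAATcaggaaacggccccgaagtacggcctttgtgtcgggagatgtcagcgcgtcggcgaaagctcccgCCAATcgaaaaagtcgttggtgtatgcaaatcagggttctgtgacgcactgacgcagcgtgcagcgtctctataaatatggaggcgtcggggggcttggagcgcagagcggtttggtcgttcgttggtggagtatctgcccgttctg

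The proteins that load, remove or process these histones were followed through 8 lists of 66 gene symbols. Of these, 65 matched by name, 62 reached 1 TPM in both libraries, and 0 of the 64 with 100 or more counts differed 2-fold between libraries, against 3.33% of all genes. By direction 35 were higher and 29 lower in replicate 2, with a median log2 ratio of 0.02, beside 0.02 for all genes.

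All 12 H3-H4 chaperone genes were at 1 TPM or more. Asf1b, the proliferation-linked copy of a chaperone that hands H3-H4 to other factors, was highest at 12.5 ± 1.81 TPM (SD, n = 2), and Ubn1, a subunit of the HIRA complex for H3.3, lowest at 2.75 ± 0.354 TPM. All 7 CENP-A deposition genes reached the level, from Rbbp7 at 30.7 ± 4.92 TPM to Cenpc1 at 2.16 TPM in both libraries. This list had a median log2 ratio of 0.36, beside 0.02 for all genes, with 6 of 7, all but Rbbp7, higher in replicate 2 by TMM. By TPM Hjurp too was lower there, at 14.19 and 14.07 TPM, and Cenpc1 was equal. All 12 H2A.Z exchange genes reached 1 TPM, from the ATPase gene Ruvbl2 at 25.6 ± 9.32 TPM to Actr6 at 1.77 ± 0.262 TPM, with a median log2 ratio of -0.09.

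Among 6 H2A-H2B chaperone genes the nucleolar histone-binding protein gene Npm1 was highest at 247 ± 34.0 TPM, above every gene of the variant set, and Supt16, a subunit of FACT, lowest at 9.75 ± 1.31 TPM. All 5 kinases and readers of H2A.X reached 1 TPM, from Baz1b at 10.9 ± 1.07 TPM to Atm at 1.43 ± 0.453 TPM. The median log2 ratios of these lists were 0.02 and -0.14.

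For histone mRNA 3′ end processing 12 of 14 genes were at 1 TPM or more. Cstf2 was highest at 18.7 ± 5.25 TPM, while Zfp473, the zinc finger protein of the U7 particle, was at 0.12 and 0.10 TPM. Rnu7, the gene of the small U7 RNA, had 0 counts in both libraries. Whether an RNA of that size could be counted in these libraries was not tested, so its level is not known. The genes acting on SLBP protein turnover were all 5 present, with Cdk1 highest at 35.4 ± 1.28 TPM and Cdk2 lowest at 5.41 ± 0.325 TPM. Of the regulators of the macroH2A1 exon choice, Ddx5 was at 41.8 ± 0.898 TPM and Mbnl1 at 37.2 ± 8.10 TPM, and Rbfox2 was lowest at 0.70 TPM in both libraries.

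**Figure D5:**
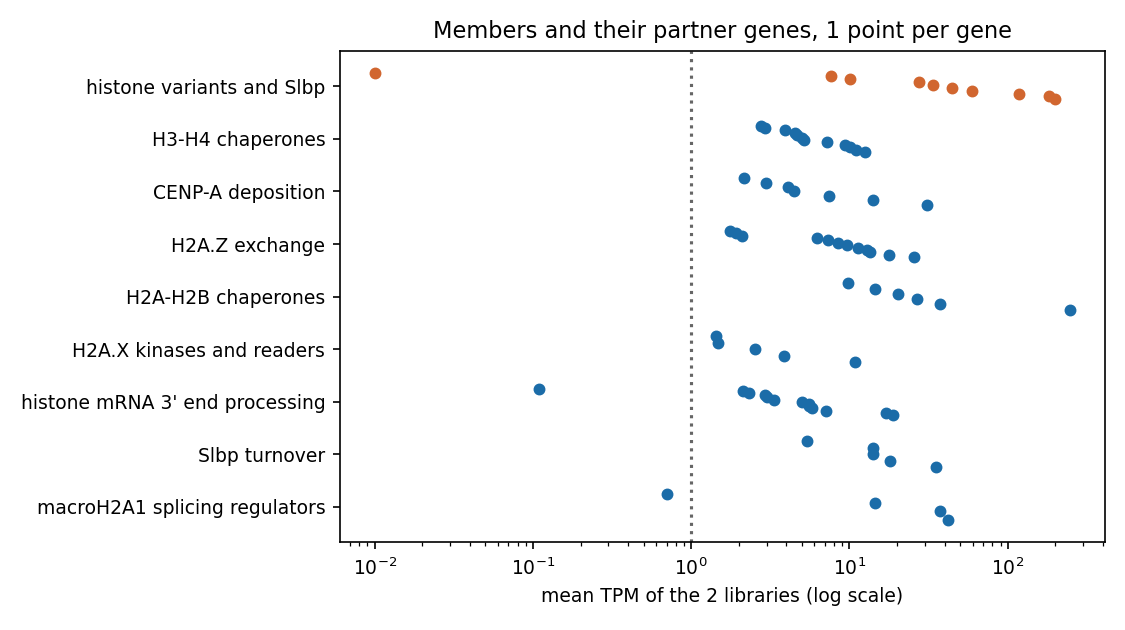
Mean TPM over the 2 libraries (log axis) of each gene in the variant set (top row, orange) and in the 8 partner lists (blue), 1 point per gene with counts, with a dotted line at 1 TPM. Partner genes above 1 TPM lie between 1.43 and 41.8 TPM, except Npm1 at 247 TPM.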

How the data were processed

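The authors' gene and transcript tables give, per the file headers, an estimated count, which need not be whole, TPM, FPKM, posterior means and standard deviations, and the percent of the gene's TPM held by each transcript. The genome was mm10 with GENCODE M4, per the deposited readme. The aligner, the counting program and its strand setting were not given in these sources. Every deposited TPM depends on all RNA in the table, and protein-coding genes held only 13.5% and 12.9% of it, against 65.6% and 68.9% of counts. FPKM as deposited by the authors was an alternative only.

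Names came from GENCODE M21 (42462 of 43346 Ensembl genes matched). Of 48 transcripts, 40 had the same length there, and transcript classes are those of M21. Expected counts were rounded and scaled by TMM (edgeR 4.0.16, R 4.3.3) with 0.5 added, and intervals are exact (Clopper-Pearson, 95%). The ratio calculation was tested on simulated counts with sampling noise only, which hold no spread between replicates. Depth was 65109488 and 90856320 counts, and 3 counts, the limit a count of 0 allows, were 0.0461 and 0.0330 CPM. The libraries differed by a chi-square of 368 per degree of freedom, far beyond sampling noise, and were counted as 2. The ratios compare these libraries, so no test between conditions was made. Copies were found with BLAST 2.17.0.

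The 10 genes and the lists were chosen with earlier results of these data known. By rule the text names all 10 genes, the 3 highest core histone genes of each family, the highest and lowest of each list, and copies with 100 or more counts; Mbnl1, Zfp473 and the promoter pair are extra. Qki did not match by name. Alternatives were other units, TPM rescaled to protein-coding genes, other scalings, pseudocounts, minimums and thresholds, DESeq2 1.42.0 size factors, and each library left out.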

Additional observations from a re-analysis of the deposited data

How the results depend on the processing

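Of the 9 expressed genes, none passed 2-fold between libraries under DESeq2 size factors, total counts, TMM over protein-coding genes, TPM, posterior mean counts, a pseudocount of 5 or any count minimum, and 2 did at 1.5-fold. By TPM ratio H3f3b reversed to -0.26 and Cenpa to -0.18; the TPM scale puts the median gene at -0.28. The number of all genes past 2-fold, 386, was 716 by TPM ratio, 1580 at 1.5-fold, 1247 with a minimum of 10 counts, 138 with 1000 and 6566 with no minimum. Estimated counts in place of TPM gave shares of 14.2% for H3.3, 8.75% for H2A.Z and 20.9% for all H2A variants, and, chosen after seeing the data, an H3f3a to H3f3b ratio of 1.01. Rescaling TPM to nuclear protein-coding genes raised mean levels, to 1535 for H2afz, 58.7 for H2afj and 0.0772 for H2afy2. Partner genes at the threshold went from 62 to 36 at 5 TPM.

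With each library left out, the H3.3 share was 7.06% to 7.07%, that of H2A.Z 4.44% to 4.69%, that of all H2A variants 8.39% to 8.82%, the macroH2A1.1 share 5.03% to 12.9%, the H3f3a to H3f3b ratio 1.61 to 2.40 and the H2afz to H2afv ratio 6.07 to 9.05. No paired analysis was possible because the labels give 1 group. Depth limits only H2afy2, and its direction between libraries was not detectable at this depth.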
